A study of Sus scrofa with 3 samples.

Results

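The liver RNA of an Enshi black pig was compared with that of a Large White pig, 1 library each, gene by gene. The members of the comparison were the gene IDs with at least 1 CPM (a gene's read count scaled to one common total for every library, here with TMM factors) in the Enshi black or the Large White library, which held for 13043 of the 25322 gene IDs in the count tables. Of these, 8661 had a gene symbol and 4382 did not. Genes of lipid metabolism, the acute phase and immunity are counted, but no list of them is described, and single ones appear only as markers, as members of other lists or by the naming rule.

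The study sequenced liver total RNA of 3 male pigs aged 90 days, 1 for each breed. Enshi black pigs are local to China and Large White pigs are a commercial breed from Europe. Values from the Chinese wild boar library are printed beside the others for their order, with no fold or size rule applied to them. The labels give no genotype, diet, treatment or feeding state and no sign of pooling, so each library was read as 1 animal. Breed, animal and library therefore cannot be told apart, and the differences have no replicate check.

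The liver makes most plasma proteins, stores glucose as glycogen, breaks down amino acids and detoxifies metals and foreign compounds. Hepatocytes do most of this work and divide it along the lobule, with periportal cells breaking down amino acids and making urea and pericentral cells clearing ammonia as glutamine. Stellate cells, which lie between hepatocytes and the sinusoid wall, store vitamin A and make collagen, while Kupffer cells are the resident macrophages.

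The deposited totals over genes lay between 19982627 and 20654571 counts a library, so that 1 count was worth 0.0463 CPM in Enshi black and 0.0512 CPM in Large White. Among hepatocyte markers with a gene ID, 8 of 9 were expressed in the comparison, and their summed level was 109316 CPM in Enshi black against 64791 in Large White, with 95504 in Chinese wild boar. Albumin (ALB), with 66508 CPM in Enshi black and 25310 in Large White, gave most of the gap between those 2 sums. ALB passed the size rule as higher, the fibrinogen chain FGB as lower and the other 6 neither way. The apolipoprotein APOA1, a defining marker, had 2 counts, none and 2 counts under its ID in the same order. Skeletal muscle markers summed to 0.232, 0.0512 and 0.0505 CPM and pancreas markers to 0, 2.35 and 1.42 CPM. The neuronal markers SNAP25 and STMN2 had no count in Enshi black or Large White, and the neuronal list summed to 2.46, 2.76 and 2.17 CPM.

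A gene passed when the 95% exact binomial interval of the ratio between the 2 scaled counts lay wholly beyond a 2-fold difference, and each fold is the higher library over the lower, with that interval in parentheses. The interval covers counting error only. In all, 617 genes passed as higher in Enshi black, or 4.73% of those compared, and 1093 passed as lower, or 8.38%, together 13.1%. The median log2 fold over all 13043 genes was 0.01. Among the 11710 genes at 1 CPM or more in both libraries 9.33% passed, against 34.7% of the 577 that reached it in Enshi black alone and 55.2% of the 756 that reached it in Large White alone. Genes of these last groups entered through the library in which they were high. Among genes with a symbol 10.7% passed, and among those without 18.0%. Chinese wild boar lay above both other libraries in 50 of the 617 higher genes and below both in 99. It lay above both in 273 of the 1093 lower genes and below both in 82. Enshi black was thus the highest or the lowest library for most genes that passed, and orders given below are read against these counts. With a coefficient of variation of 0.4 assumed among animals and added to the counting error, 133 genes passed as higher and 413 as lower, and genes picked by the naming rule that still did are said to pass with the assumed spread, beside their values or at the end.

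**Figure D1:**
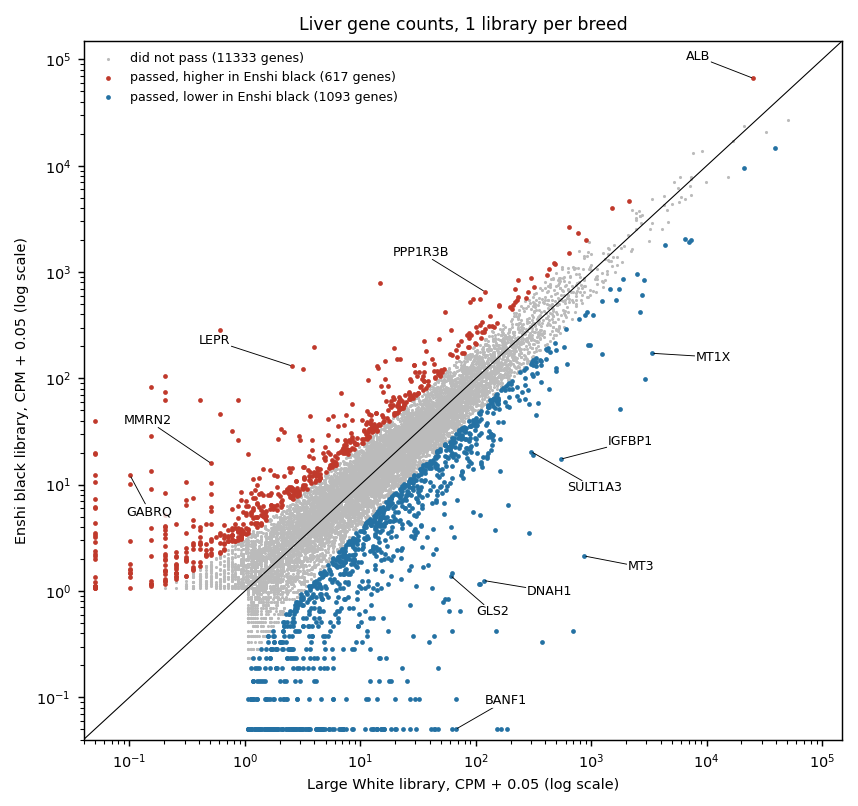
Each point is 1 of the 13043 genes compared, with its level in the Large White library on the x axis and in the Enshi black library on the y axis, both as CPM + 0.05 on log scales. Coloured points passed the size rule, 617 higher and 1093 lower in Enshi black, and points along the lowest row had no count in Enshi black.

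The leading genes by the interval bound nearest to 1 came from unrelated functions. ST6GALNAC1, a sialyltransferase, had 7.09 CPM in Enshi black, while Large White had 0.256 and Chinese wild boar 0.809, so that it was 27.7-fold (11.6 to 86.5) higher in Enshi black. HRH1, a histamine receptor, had 3.85 CPM in Enshi black against 2 counts in Large White and none in Chinese wild boar, a ratio of 37.6 (10.1 to 315). Enshi black was the highest of the 3 libraries in both of these genes. MAB21L1, a developmental gene, had no count in Large White and was at least 22.3-fold higher in Enshi black against a floor of 3 counts per library. RNF181, a ubiquitin ligase, was likewise at least 13.6-fold higher, with no count in Large White or Chinese wild boar. The counting intervals reached down to 17.7-fold for MAB21L1 and 10.6-fold for RNF181, so folds against the floor are not interval bounds. Among lower genes, C19orf53 had 1.11 CPM in Enshi black and 108 in Large White, against 129 in Chinese wild boar, a difference of 97.4-fold (65.3 to 152), with Chinese wild boar close to Large White. All 5 passed with the assumed spread.

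Some of the genes that passed were abundant, with a mean of at least 100 CPM over the 2 libraries. GYS2, the liver glycogen synthase, had 320.2 CPM in Enshi black against 108 in Large White, with 80.7 in Chinese wild boar, and was 2.95-fold (2.81 to 3.10) higher in Enshi black. PPP1R3B, which brings a phosphatase to glycogen, was higher by 5.46-fold (5.22 to 5.70). HSD17B10, a mitochondrial dehydrogenase that also takes part in mitochondrial tRNA processing, had 266 CPM in Enshi black, while Large White had 88.0 and Chinese wild boar 338, lower in Large White than in both others. The other abundant higher genes included MPDZ, a scaffold protein of cell junctions, at 3.09-fold (2.92 to 3.27), and CRYZ, a quinone reductase, at 2.82-fold (2.67 to 2.98). Among abundant lower genes, DCPS, the scavenger decapping enzyme of mRNA breakdown, had 59.0 CPM in Enshi black and 348 in Large White, against 149.6 in Chinese wild boar, a difference of 5.90-fold (5.56 to 6.27). RBM25, a splicing regulator, had 45.5 CPM in Enshi black against 333 in Large White, with 157 in Chinese wild boar, and was 7.33-fold (6.85 to 7.84) lower. SULT1A3, annotated as a phenol sulfotransferase, had 20.4 CPM in Enshi black, while Large White had 302 and Chinese wild boar 32.8, and was 14.8-fold (13.5 to 16.4) lower. In these 3 genes Large White was the highest library. PALM3, a membrane-associated paralemmin, was lower by 4.55-fold (4.37 to 4.74), and IGFALS, which holds insulin-like growth factors in the circulation, by 4.18-fold (3.94 to 4.44). DCPS, RBM25 and SULT1A3 passed with the assumed spread, and the others here did not.

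Metallothioneins, small cysteine-rich proteins that bind zinc and copper, were much lower in Enshi black. MT1X had 172 CPM in Enshi black and 3368 in Large White, against 474 in Chinese wild boar, and was 19.6-fold (18.9 to 20.2) lower in Enshi black. MT3, annotated as the form known from brain, had 2.09 CPM in Enshi black against 869 in Large White, with 22.8 in Chinese wild boar, and was 417-fold (311 to 572) lower. Large White was the highest library for both, and both passed with the assumed spread. Metallothionein genes are near-identical copies of one another, so the split of reads between MT1X and MT3 is uncertain. Of 13 expressed zinc transporters of the SLC30 and SLC39 families, looked at after the values of MT1X and MT3 were seen, 1 was lower and none higher. That gene was SLC30A2, an exporter of zinc into vesicles, with 0.973 CPM in Enshi black, while Large White had 6.14 and Chinese wild boar 0.859, a difference of 6.31-fold (3.95 to 10.6). The importer SLC39A5, with 108 CPM in Enshi black and 186 in Large White, did not pass.

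Genes were then described by 62 lists, which held 2041 of the 8661 members with a symbol and 220 of the 923 that passed. For each list the number that passed is read against the 4.73% higher and 8.38% lower over all genes. Beyond the 4 farthest from 1 in a list, members were named after their values were seen. In 6 lists no member passed. These were mitochondrial protein import, protein folding in the endoplasmic reticulum (ER), glycosylation enzymes, the vacuolar ATPase, peroxisome biogenesis, and haem synthesis and breakdown, with 10 to 45 expressed members each.

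**Figure D2:**
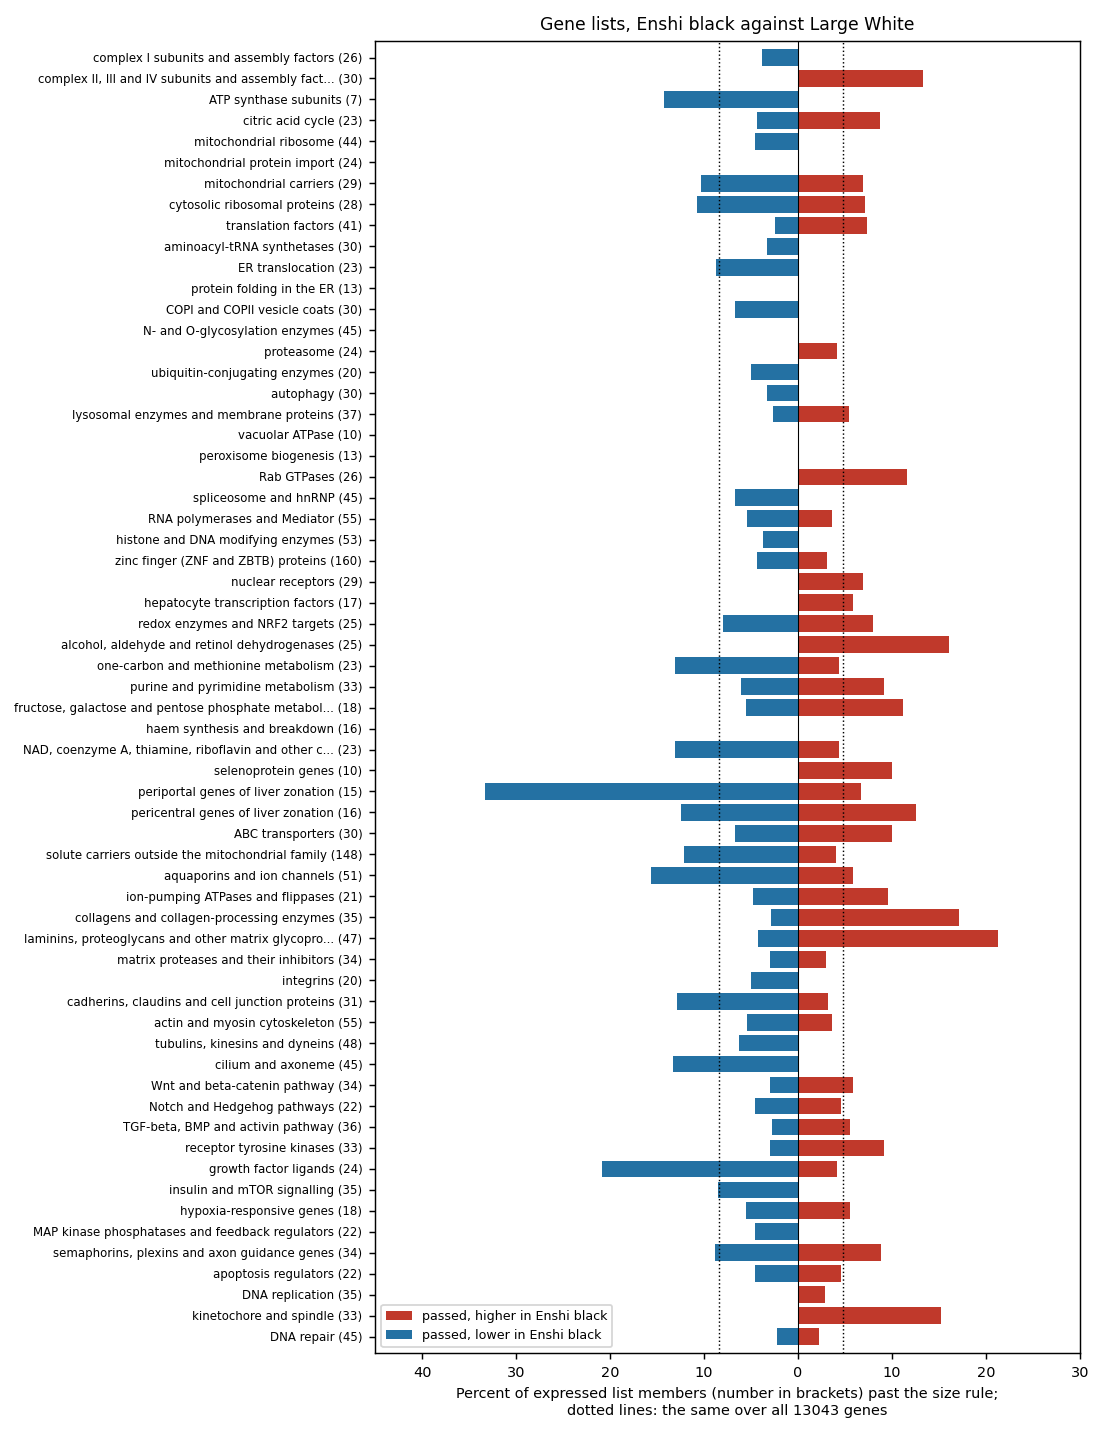
Bars give, for each of the 62 gene lists, the percent of expressed members that passed as higher in Enshi black (right) or lower (left), with the number of expressed members in brackets. Dotted lines mark 4.73% and 8.38% over all 13043 genes. Matrix, kinetochore and dehydrogenase lists reach farthest to the right, and periportal, growth factor, ion channel and cilium lists lie among the longest bars to the left.

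Several genes of the collagen-rich extracellular matrix were higher in Enshi black. Of 35 expressed collagens and collagen-processing enzymes, 6 passed higher and 1 lower, with a median log2 fold of 0.64 against 0.01 over all genes. COL3A1, the fibrillar collagen of soft tissue, had 837 CPM in Enshi black and 232 in Large White, against 383 in Chinese wild boar. COL1A2, a chain of type I collagen, had 114 CPM in Enshi black against 32.2 in Large White, with 88.7 in Chinese wild boar, a difference of 3.55-fold (3.25 to 3.88). COL14A1, which associates with collagen fibrils, had 94.8 CPM in Enshi black, while Large White had 27.5 and Chinese wild boar 33.2, a difference of 3.44-fold (3.13 to 3.80). Enshi black was the highest and Large White the lowest library in all 3, as in most genes that passed higher. LOX, which cross-links collagen, had 13.9 CPM in Enshi black and 1.38 in Large White, against 6.87 in Chinese wild boar, and was 10.1-fold (6.80 to 15.6) higher. The other 2 higher members were COL12A1 and COL6A5, and the lower one was the transmembrane collagen COL13A1 at 3.91-fold (2.81 to 5.55). Of 11 collagen genes of types I, III, V, VI, XII and XIV, counted after these values were seen, 5 passed higher and none lower. Their ratios of Enshi black over Large White ran from 0.529 to 3.60. None of 5 basement membrane collagen IV genes passed, and their ratios ran from 0.711 to 2.78.

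Among 47 laminins, proteoglycans and other matrix glycoproteins, 10 passed higher and 2 lower, with a median log2 fold of 0.25. MMRN2, an endothelial matrix protein, had 15.8 CPM in Enshi black against 0.461 in Large White, with 0.910 in Chinese wild boar, so that the Enshi black library stood above both others. TNC, tenascin C, which is known from remodelling tissue, had 14.5 CPM in Enshi black, while Large White had 2.51 and Chinese wild boar 11.3, a difference of 5.77-fold (4.26 to 7.96). DCN, the collagen-binding proteoglycan decorin, had 26.2 CPM in Enshi black and 7.37 in Large White, against 10.8 in Chinese wild boar, and was 3.56-fold (2.96 to 4.30) higher. SPON1, a secreted matrix protein, was higher by 3.32-fold (2.75 to 4.03). The other higher members, FBN1, FMOD, ECM2, LAMA4, PRELP and SPARC, differed by 2.30 to 3.18-fold. The lower members were LAMB3 and LAMA3, chains of the same epithelial laminin, at 3.01-fold (2.65 to 3.42) and 2.56-fold (2.11 to 3.12). LOX and MMRN2 passed with the assumed spread, and no other member of these lists did. Matrix proteases and their inhibitors gave 1 higher and 1 lower gene of 34, ADAM23 at 2.75-fold (2.37 to 3.20) and MMP9 at 4.73-fold (2.04 to 12.8), and MMP9 did not pass with total counts or with folds centred by gene span. Of 20 integrin list genes none passed higher, and the 1 lower, ITGB1BP2, encodes an integrin-binding protein rather than an integrin.

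Of 8 expressed markers of stellate cells and fibroblasts, 5 passed higher and none lower, but 4 of the 5, COL1A2, COL3A1, DCN and LOX, are matrix genes already described. The fifth was LRAT, the enzyme that stores vitamin A as retinyl esters, with 8.80 CPM in Enshi black against 2.25 in Large White, with 5.61 in Chinese wild boar. The 4 markers outside the matrix lists summed to 96.7 CPM in Enshi black against 83.6 in Large White, with 111 in Chinese wild boar. ACTA2 gave most of the sum in Enshi black and in Large White, so the sums say little about LRAT. LRAT and ACTA2 lay above their Large White levels in Enshi black, and DES and PDGFRB below. The contractile marker ACTA2 had 57.8 CPM in Enshi black, while Large White had 42.4 and Chinese wild boar 48.8. The intermediate filament gene DES had 14.2 CPM in Enshi black and 21.0 in Large White, against 37.8 in Chinese wild boar, and the mural cell receptor PDGFRB had 15.9 CPM in Enshi black against 18.0 in Large White, with 18.6 in Chinese wild boar, and none of these 3 passed. In whole liver, more cells of a type and more RNA per cell cannot be told apart, and the part of cell numbers in the matrix genes was not tested.

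Several genes of chromosome segregation were also higher. Of 33 expressed kinetochore and spindle genes, 5 passed higher and none lower, 32 lay above 1 as a ratio, and the median log2 fold was 0.89. It was 0.98 with total counts, 0.89 with DESeq2 size factors and 0.97 with folds centred by gene span. CENPF, a kinetochore protein of dividing cells, had 58.6 CPM in Enshi black, while Large White had 20.9 and Chinese wild boar 12.03. CENPU, a part of the inner kinetochore, had 6.44 CPM in Enshi black and 1.84 in Large White, against 2.68 in Chinese wild boar, a difference of 3.496-fold (2.41 to 5.19). ANLN, the scaffold of the cleavage furrow, had 12.2 CPM in Enshi black against 4.35 in Large White, with 4.35 in Chinese wild boar, a difference of 2.80-fold (2.19 to 3.62). HMMR, a spindle protein, was higher by 2.70-fold (2.09 to 3.53), and the checkpoint kinase TTK by 3.52-fold (2.04 to 6.39). ANLN and HMMR did not pass with folds centred by span, and none of the kinetochore genes passed with the assumed spread. Enshi black was the highest of the 3 libraries in all 5, as in most genes that passed higher.

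Few genes that copy DNA passed. Of 35 replication genes only CDC6, which loads the helicase, passed, with 5.33 CPM in Enshi black, while Large White had 1.07 and Chinese wild boar 1.31, a difference of 4.96-fold (3.10 to 8.31). The 4 expressed subunits of the MCM2 to MCM7 helicase, looked at after these values were seen, had ratios from 1.78 to 1.97 and did not pass. Of 45 DNA repair genes 1 passed higher and 1 lower, the recombination gene BRCA1 at 2.97-fold (2.30 to 3.86) and the base excision glycosylase NTHL1 at 2.78-fold (2.38 to 3.26).

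In energy metabolism most genes did not pass. Among 23 citric acid cycle genes, 2 passed higher and 1 lower. PDHA1, the catalytic subunit through which pyruvate enters the cycle, had 384 CPM in Enshi black and 131 in Large White, against 149 in Chinese wild boar, and was 2.92-fold (2.79 to 3.05) higher in Enshi black. The other higher gene, ACO1, a cytosolic aconitase that also senses iron, was at 2.12-fold (2.03 to 2.22) and did not pass with folds centred by gene span. MDH2, the mitochondrial malate dehydrogenase, was lower by 2.14-fold (2.06 to 2.22) but did not pass with total counts or with folds centred by span. Of 30 genes of respiratory complexes II, III and IV and their assembly, 4 passed higher and none lower. They were COX7A2 and COX7A2L, a complex IV subunit and its relative in supercomplexes, at 2.67-fold (2.39 to 2.998) and 2.25-fold (2.06 to 2.45), and the assembly factors COX15 and SCO1 at 2.69-fold (2.15 to 3.39) and 2.49-fold (2.25 to 2.76). Of 26 complex I genes only the subunit NDUFA6 passed, lower by 5.25-fold (3.03 to 9.64), and of 7 ATP synthase genes only ATP5ME, also lower, by 2.68-fold (2.48 to 2.91).

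Mitochondrial carriers of the SLC25 family differed in both directions, with 2 higher and 3 lower of 29. SLC25A3, which imports phosphate for ATP synthesis, had 273 CPM in Enshi black against 102 in Large White, with 155 in Chinese wild boar, and Large White was the lowest library. SLC25A45, a mitochondrial carrier, had 1.11 CPM in Enshi black, while Large White had 13.8 and Chinese wild boar 11.3, lower in Enshi black by 12.4-fold (8.14 to 19.7), and passed with the assumed spread. SLC25A23, a calcium-dependent ATP and phosphate carrier, and SLC25A35 were lower by 5.49-fold (3.82 to 8.09) and 5.46-fold (3.26 to 9.63). Of 44 mitochondrial ribosome genes, 2 passed lower and none higher. MRPL55 had 1 count in Enshi black against 18.8 CPM in Chinese wild boar and 19.9 in Large White, a ratio of 429 (76.5 to 16969.5). MRPS18B was lower by 3.03-fold (2.61 to 3.53).

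In protein synthesis, single genes moved in opposite directions within a list. Of 28 cytosolic ribosomal protein genes, 2 passed higher and 3 lower, while the list median was a log2 fold of 0.49. RPS16 had 160.4 CPM in Enshi black and 68.7 in Large White, against 116 in Chinese wild boar, and the other higher gene was RPL27. RPS21 had 3.57 CPM in Enshi black against 30.7 in Large White, with 45.6 in Chinese wild boar, lower in Enshi black by 8.61-fold (6.78 to 11.1), and passed with the assumed spread. RPS23 had 38.9 CPM in Enshi black, while Large White had 171 and Chinese wild boar 379, and RPLP1 had 178 CPM in Enshi black and 439 in Large White, against 829 in Chinese wild boar, with Enshi black the lowest library in each. Ribosomal protein genes have many processed copies in the genome, so their counts are uncertain. Of 41 translation factors, 3 passed higher and 1 lower. EEF2, which moves the ribosome along the mRNA, had 1993 CPM in Enshi black against 895 in Large White, with 1676 in Chinese wild boar, and was 2.23-fold (2.19 to 2.27) higher. The initiation factor subunits EIF3M and EIF3E were higher by 3.02-fold (2.62 to 3.51) and 2.54-fold (2.32 to 2.78), and EIF1AD, a relative of an initiation factor, was 23.5-fold (12.9 to 47.7) lower. Of 30 tRNA synthetases only the mitochondrial SARS2 passed, lower by 2.70-fold (2.16 to 3.38), and not with folds centred by span.

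Along the secretory route, 2 of 23 ER translocation genes passed lower. SRPRA, the receptor that docks ribosomes at the ER, had 142 CPM in Enshi black, while Large White had 334 and Chinese wild boar 344, a difference of 2.34-fold (2.25 to 2.45). SEC61A2, a second form of the translocation channel, was lower by 5.92-fold (4.40 to 8.09). Among 30 vesicle coat genes, COPE and SEC31B were lower by 3.26-fold (3.01 to 3.53) and 2.66-fold (2.24 to 3.18). The ER chaperones CALR and HSP90B1 did not pass, with 1259 and 1487 CPM for CALR and 1139.9 and 1499.8 for HSP90B1 in Enshi black and Large White. In the glycosylation list, RPN1, a subunit of the enzyme that adds N-glycans, had 381 and 311 CPM, and none of 45 members passed.

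Few genes of protein and organelle turnover passed. Of 24 proteasome list genes only PSME1, a proteasome activator, passed, higher by 2.77-fold (2.62 to 2.93). The 1 lower gene of 20 ubiquitin-conjugating enzymes was UBE2Z at 2.59-fold (2.33 to 2.87). GABARAPL1, a membrane anchor of autophagosomes, was the only autophagy gene of 30 to pass, with 27.1 CPM in Enshi black and 162 in Large White, against 145 in Chinese wild boar, a difference of 5.999-fold (5.49 to 6.56) that also passed with the assumed spread. Of 37 lysosomal genes, the protease CTSL and the mannosidase MANBA were higher by 2.63-fold (2.36 to 2.93) and 2.61-fold (2.04 to 3.38). MANBA did not pass with folds centred by span. Of 26 Rab GTPases, the switches of vesicle traffic, 3 passed higher and none lower. RAB30 had 3.66 CPM in Enshi black against 0.716 in Large White, with 7.18 in Chinese wild boar, and RAB34 and RAB28 were higher by 3.68-fold (2.47 to 5.64) and 3.05-fold (2.20 to 4.28).

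Among genes of RNA processing and chromatin few passed. Of 45 spliceosome and hnRNP genes, 3 were lower and none higher. HNRNPK, an RNA-binding protein of the nucleus, had 28.3 CPM in Enshi black, while Large White had 128 and Chinese wild boar 134, a difference of 4.54-fold (4.15 to 4.97). SRSF3 and SNRPN were lower by 2.75-fold (2.17 to 3.504) and 2.51-fold (2.07 to 3.07), but SRSF3 did not pass with folds centred by span, nor SNRPN with total counts. Of 53 histone and DNA modifying enzymes, the acetyltransferase CREBBP and the demethylase KDM6B were lower, at 3.94-fold (3.65 to 4.26) and 3.25-fold (2.69 to 3.95). Among 55 RNA polymerase and Mediator list genes, 2 passed higher and 3 lower. GTF2IRD1, a relative of a general transcription factor, had no count in Large White and was at least 12.7-fold higher, and the polymerase II subunit POLR2G was higher by 2.54-fold (2.21 to 2.91). POLR1F was without a count in Enshi black, lower by at least 19.1-fold against the floor of 3 counts, POLR1H likewise by at least 10.7-fold, while MED24 was lower by 3.84-fold (2.27 to 6.77). Of 160 zinc finger genes of the ZNF and ZBTB classes, 5 passed higher and 7 lower. ZBTB38, which binds methylated DNA, had 4.26 CPM in Enshi black and 0.409 in Large White, against 1.11 in Chinese wild boar, a difference of 10.4-fold (5.07 to 24.8). ZNF79 had 0.834 CPM in Enshi black against 7.78 in Large White, with 7.93 in Chinese wild boar, a difference of 9.33-fold (5.71 to 16.2). Of 29 nuclear receptors, ESR1, an oestrogen receptor, had 20.5 CPM in Enshi black, while Large White had 7.22 and Chinese wild boar 10.01, and the orphan receptor ESRRG had 3.71 CPM in Enshi black and 0.358 in Large White, against 0.152 in Chinese wild boar, a difference of 10.3-fold (4.80 to 26.6) that passed with the assumed spread. Among 17 hepatocyte transcription factors only TBX3, a repressor, passed, higher by 2.17-fold (2.01 to 2.34).

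Several periportal genes of liver zonation were lower in Enshi black. Of 15 expressed, 5 passed lower and 1, ALB, higher, with a median log2 fold of -0.46. GLS2, the liver glutaminase, had 1.34 CPM in Enshi black against 60.4 in Large White, with 44.7 in Chinese wild boar, a difference of 45.0-fold (31.2 to 67.5). HAL, which starts histidine breakdown, had 16.3 CPM in Enshi black, while Large White had 109.8 and Chinese wild boar 59.9, a difference of 6.73-fold (6.01 to 7.56). SLC7A2, a carrier of arginine and other cationic amino acids, had 17.9 CPM in Enshi black and 125 in Large White, against 115 in Chinese wild boar, a difference of 7.005-fold (6.29 to 7.82). Enshi black was the lowest library in each, and all 3 passed with the assumed spread. The other lower members were IGF1 and the urea cycle enzyme ASL, at 2.78-fold (2.25 to 3.46) and 2.27-fold (2.18 to 2.36). Of 16 pericentral genes, 2 passed higher and 2 lower, with a median log2 fold of 0.49. OAT, which interconverts ornithine and glutamate semialdehyde, had 64.3 CPM in Enshi black against 26.8 in Large White, with 22.4 in Chinese wild boar, and TBX3 was the other higher gene. GSTM3 and CYP27A1, a glutathione transferase and a sterol hydroxylase, were lower by 19.6-fold (7.33 to 73.9) and 3.31-fold (2.75 to 3.99), and GSTM3 has near-identical copies.

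In one-carbon metabolism, 1 gene passed higher and 3 lower of 23. MTHFD1L, which makes formate in mitochondria, had 7.04 CPM in Enshi black, while Large White had 0.972 and Chinese wild boar 0.859, a difference of 7.24-fold (4.48 to 12.4) that passed with the assumed spread. CHDH, which turns choline towards betaine, had 67.7 CPM in Enshi black and 227 in Large White, against 159.8 in Chinese wild boar, a difference of 3.35-fold (3.161 to 3.56). AMT, the aminomethyltransferase of glycine cleavage, had 26.7 CPM in Enshi black against 99.898 in Large White, with 116 in Chinese wild boar, a difference of 3.74-fold (3.40 to 4.11). Enshi black was the lowest library for both. FTCD, a late enzyme of histidine breakdown, was lower by 2.14-fold (2.08 to 2.20), and not with total counts or folds centred by span.

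Of 25 alcohol, aldehyde and retinol dehydrogenase list genes, 4 passed higher and none lower. ALDH18A1, the first enzyme of proline synthesis from glutamate, had 84.9 CPM in Enshi black, while Large White had 15.1 and Chinese wild boar 80.5, so that Large White stood below both others. ALDH1L2, a mitochondrial folate enzyme, had 47.3 CPM in Enshi black and 13.7 in Large White, against 19.4 in Chinese wild boar. The others were LRAT and ALDH1A2, the retinol-storing enzyme given above and a maker of retinoic acid, the latter at 3.66-fold (2.38 to 5.80). In the redox list, 2 genes passed higher and 2 lower of 25. NQO1, a quinone reductase induced through NRF2, had 26.1 CPM in Enshi black against 2.97 in Large White, with 5.81 in Chinese wild boar, a difference of 8.79-fold (6.70 to 11.7). KEAP1, which holds NRF2 back, had 0.232 CPM in Enshi black, while Large White had 8.44 and Chinese wild boar 7.38, and was 36.4-fold (15.3 to 114) lower. SRXN1, which repairs oxidised peroxiredoxins and is itself an NRF2 target, had no count in Enshi black and was at least 32.4-fold lower. These 3 passed with the assumed spread. PRDX4, an ER peroxiredoxin, was higher by 2.84-fold (2.65 to 3.03).

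Nucleotide and cofactor enzymes moved singly. Of 33 purine and pyrimidine genes, 3 passed higher and 2 lower. ADA, which deaminates adenosine, had 1.90 CPM in Enshi black and 14.9 in Large White, against 3.99 in Chinese wild boar, a difference of 7.87-fold (5.66 to 11.2). The enzymes ADK, which phosphorylates adenosine, NT5E, which makes adenosine outside cells, and ATIC, the last enzyme of purine synthesis, were higher by 2.21-fold (2.03 to 2.41), 2.52-fold (2.04 to 3.14) and 2.52-fold (2.25 to 2.82), and NT5E did not pass with folds centred by span. CDA was lower by 6.07-fold (2.06 to 24.2), with 4 counts in Enshi black, but did not pass with total counts. NNMT, which methylates nicotinamide, had 19.9 CPM in Enshi black against 127 in Large White, with 68.6 in Chinese wild boar, a difference of 6.38-fold (5.76 to 7.09). PANK3, which starts coenzyme A synthesis, had 19.6 CPM in Enshi black, while Large White had 4.66 and Chinese wild boar 7.93, a difference of 4.21-fold (3.35 to 5.34), and NADSYN1 and ACMSD of NAD synthesis and tryptophan breakdown were lower by 2.94-fold (2.48 to 3.498) and 2.81-fold (2.30 to 3.45). UGDH and UGP2, which make UDP-glucuronate and UDP-glucose, were higher by 3.03-fold (2.88 to 3.18) and 2.30-fold (2.18 to 2.44), and KHK, the first enzyme of fructose breakdown, was lower by 2.17-fold (2.09 to 2.25). UGP2 did not pass with folds centred by span, nor KHK with that or with total counts. Of 10 selenoprotein genes only SELENOI, a phospholipid-making enzyme, passed, with 44.6 CPM in Enshi black and 5.73 in Large White, against 18.1 in Chinese wild boar, a difference of 7.78-fold (6.39 to 9.54). ADA, NNMT and SELENOI passed with the assumed spread.

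**Figure D3:**
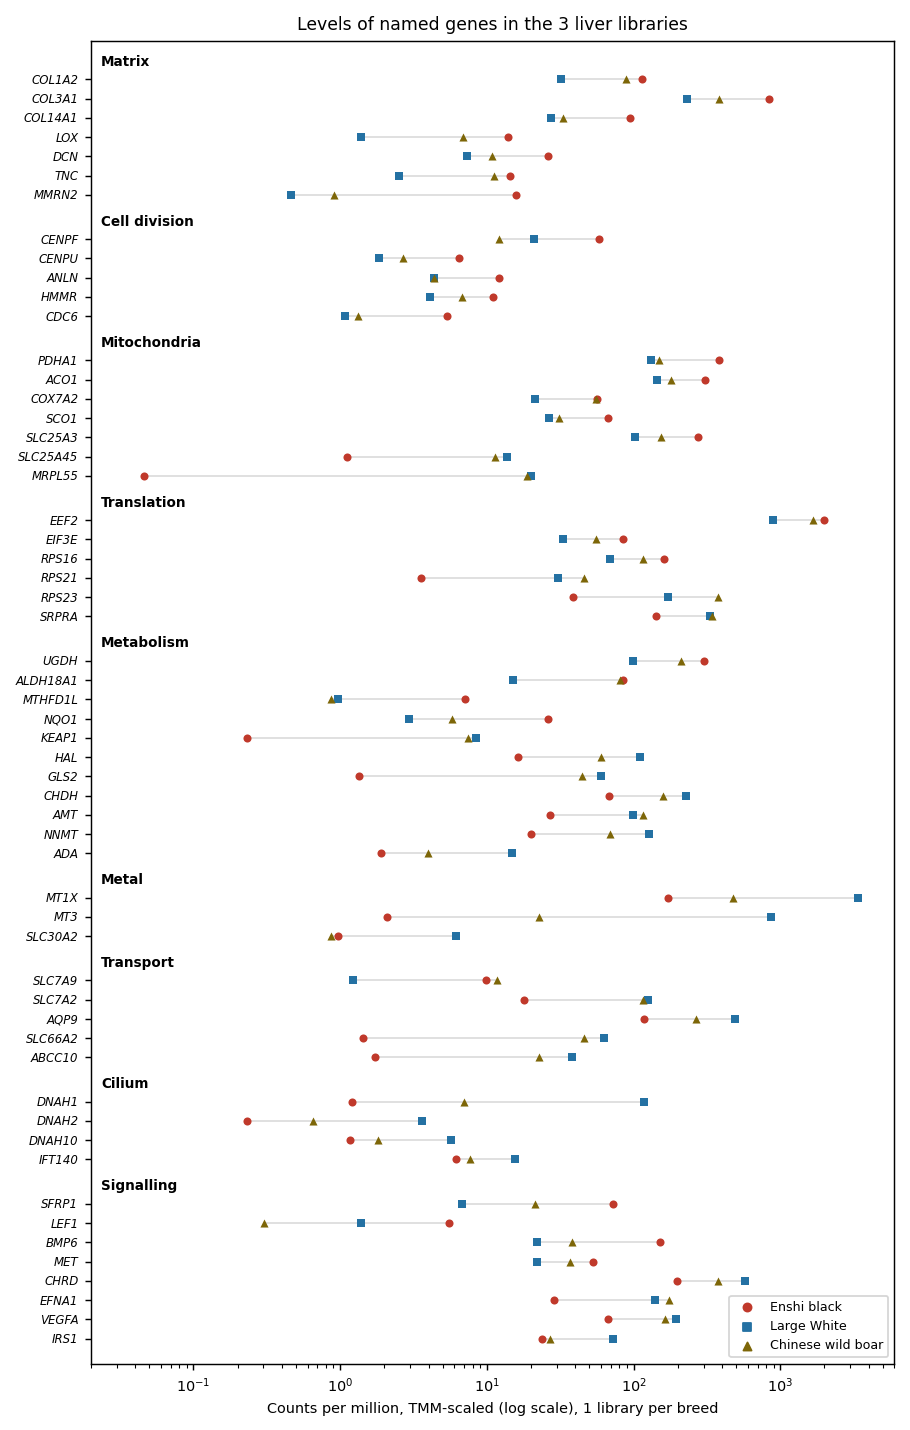
Each row is 1 gene, grouped by theme, with its TMM-scaled CPM on a log axis in the Enshi black, Large White and Chinese wild boar libraries, 1 point per library and no error bar because there is 1 library per breed. Matrix and cell division genes have the Enshi black point farthest right, and the metallothioneins and axonemal dyneins have the Large White point there.

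Of 250 membrane transport genes in 4 lists, 14 passed higher and 29 lower, so that 67.4% of those that passed were lower, against 63.9% of all genes that passed. Of 148 solute carriers outside the mitochondrial family, 6 passed higher and 18 lower. SLC66A2, a PQ-loop protein, had 1.44 CPM in Enshi black against 62.8 in Large White, with 46.2 in Chinese wild boar, a difference of 43.7-fold (30.6 to 64.6) that passed with the assumed spread. SLC7A9, a carrier of cystine and basic amino acids, had 9.92 CPM in Enshi black, while Large White had 1.23 and Chinese wild boar 11.8, with Large White the lowest library. SLC13A5, the citrate carrier of hepatocytes, had 6.81 CPM in Enshi black and 45.1 in Large White, against 22.2 in Chinese wild boar, a difference of 6.62-fold (5.55 to 7.94). SLC37A2, a sugar phosphate carrier, had 14.9 CPM in Enshi black against 84.9 in Large White, with 16.8 in Chinese wild boar, high in Large White alone. Higher genes included SLC19A2 for thiamine and SLC44A1 for choline, at 3.19-fold (2.50 to 4.10) and 2.42-fold (2.16 to 2.71). SLC34A2 for phosphate was without a count in Enshi black and lower by at least 23.6-fold. SLC6A20 for proline was likewise lower by at least 14.7-fold.

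Of 51 expressed aquaporin and ion channel genes, 3 passed higher and 8 lower. AQP9, the glycerol channel of hepatocytes, had 118 CPM in Enshi black, while Large White had 491 and Chinese wild boar 267, a difference of 4.16-fold (3.98 to 4.35). KCNQ3, a potassium channel, had no count in Enshi black and was at least 21.7-fold lower. GABRQ, a GABA receptor subunit, had 12.2 CPM in Enshi black against 1 count in Large White and 2.12 CPM in Chinese wild boar, a ratio of 238 (42.4 to 9441). Among 30 ABC transporters, 3 passed higher and 2 lower. ABCC10, a drug efflux pump, had 1.71 CPM in Enshi black and 38.2 in Large White, against 22.5 in Chinese wild boar, a difference of 22.3-fold (16.01 to 31.9) that passed with the assumed spread. ABCC9, the sulfonylurea receptor of potassium channels, was higher by 3.11-fold (2.41 to 4.06), and ABCB9, a lysosomal peptide transporter, lower by 4.85-fold (2.88 to 8.60). Of 21 ion pumps and flippases, the lipid flippase ATP10D was higher by 2.97-fold (2.31 to 3.84), and the calcium pump ATP2B2 was lower by 2.93-fold (2.57 to 3.34).

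Some genes of the cilium and its motile core were lower in Enshi black. Of 45 expressed, 6 passed lower and none higher, with a median log2 fold of -0.34. It was -0.24 with total counts, -0.34 with DESeq2 size factors and -0.42 with folds centred by gene span. DNAH1, a dynein heavy chain of motile cilia, had 1.20 CPM in Enshi black against 117 in Large White, with 6.97 in Chinese wild boar, a difference of 97.0-fold (66.0 to 149). Large White stood far above both other libraries. The other expressed axonemal dynein heavy chains had 2.05 to 5.68 CPM in Large White, and whether all reads under the DNAH1 ID came from that gene was not tested. DNAH2, another such chain, had 0.232 CPM in Enshi black, while Large White had 3.63 and Chinese wild boar 0.657, a difference of 15.7-fold (6.41 to 49.8), and DNAH10 had 1.16 CPM in Enshi black and 5.68 in Large White, against 1.82 in Chinese wild boar, a difference of 4.90-fold (3.155 to 7.90). DRC7, a part of the dynein regulatory complex, had 2 counts in Enshi black and 1.43 CPM in Large White, a ratio of 15.5 (3.90 to 134). The other lower members, IFT140 of intraflagellar transport and the polycystin PKD1, differed by 2.55-fold (2.07 to 3.15) and 2.23-fold (2.09 to 2.39). Of the 5 expressed axonemal dynein heavy chains 3 passed lower and of 17 intraflagellar transport and BBS genes 1 did, groups formed after the values were seen. DNAH2 and DRC7 were under 1 CPM in Enshi black and entered through Large White alone. Of all genes that entered so, 55.2% passed lower and none higher, so the counts for the cilium partly follow from the filter. Cholangiocytes are ciliated cells of the bile ducts, and none of their expressed markers passed. Their levels summed to 134 CPM in Enshi black against 169 in Large White, with 171 in Chinese wild boar. SLC4A2 gave most of each sum, at 105, 143 and 154 CPM in that order. For the other markers, Enshi black and Large White had 21.7 and 18.8 CPM for SPP1 and 4.22 and 3.38 for SOX9. EPCAM had 1.62 and 2.41 CPM, and CFTR 1.62 and 1.69. The part of cholangiocyte numbers in the cilium genes was not tested. DNAH1, DNAH2 and DRC7 passed with the assumed spread.

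Cytoskeleton and junction genes passed in both directions. Of 55 actin and myosin genes 2 were higher and 3 lower. VIL1, the villin of microvilli, had 35.5 CPM in Enshi black against 6.40 in Large White, with 152 in Chinese wild boar, so that Chinese wild boar was the highest library, and ESPN, an actin bundler, was higher by 11.1-fold (4.07 to 42.3). CAPZA2, which caps actin filaments, had no count in Enshi black and was at least 50.8-fold lower, MYH3 was lower by 5.63-fold (3.79 to 8.63), and TPM2 by 2.48-fold (2.32 to 2.65). Of 48 tubulin, kinesin and dynein genes, KIF1A, KLC2 and DYNC2I2 were lower by 2.48 to 8.84-fold, and DYNC2I2 did not pass with total counts. Of 31 cadherin, claudin and junction genes, 1 was higher, NECTIN1, with 3 counts in Large White and a ratio of 12.7 (4.05 to 63.9). The 4 lower ones were CLDN23, CDH13, CDH24 and TJP3, at 2.39 to 7.18-fold.

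Of 278 genes in the signalling lists, 14 passed higher and 17 lower, or 11.2% together, near the 13.1% over all genes. In the Wnt pathway 2 genes of 34 were higher and 1 lower. SFRP1, a secreted antagonist that binds Wnt proteins, had 72.2 CPM in Enshi black, while Large White had 6.81 and Chinese wild boar 21.2, a difference of 10.6-fold (8.89 to 12.8). The transcription factors LEF1 and TCF7L2, partners of beta-catenin, moved oppositely. LEF1 had 5.51 CPM in Enshi black and 1.38 in Large White, against 0.303 in Chinese wild boar, a difference of 3.99-fold (2.61 to 6.31), and TCF7L2 had 25.9 CPM in Enshi black against 62.2 in Large White, with 28.1 in Chinese wild boar, lower by 2.40-fold (2.17 to 2.66). In the TGF-beta and BMP list, BMP6, the ligand through which the sinusoid wall reports iron load, had 150.5 CPM in Enshi black, while Large White had 22.1 and Chinese wild boar 37.8, and LTBP1, which stores latent TGF-beta, was higher by 2.87-fold (2.59 to 3.19). CHRD, chordin, an antagonist of BMP ligands, had 196 CPM in Enshi black and 579 in Large White, against 378 in Chinese wild boar, a difference of 2.95-fold (2.85 to 3.06). SFRP1 and BMP6 passed with the assumed spread. HHIP, which traps Hedgehog ligands, was higher by 2.34-fold (2.096 to 2.63) but not with folds centred by span, and JAG2, a Notch ligand, was lower by 3.47-fold (2.26 to 5.46).

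Of 33 receptor tyrosine kinases 3 passed higher and 1 lower. MET, the receptor of hepatocyte growth factor, had 53.1 CPM in Enshi black against 22.1 in Large White, with 36.8 in Chinese wild boar, a difference of 2.40-fold (2.15 to 2.69) that did not hold with folds centred by span. PDGFRA, a receptor of mesenchymal cells, had 13.9 CPM in Enshi black, while Large White had 4.25 and Chinese wild boar 6.37. EPHA7, an ephrin receptor, had 2.46 CPM in Enshi black and 0.358 in Large White, against 1.77 in Chinese wild boar, a difference of 6.86-fold (3.11 to 17.9). Enshi black was highest in all 3. CSF1R, the receptor of macrophages, had 15.6 CPM in Enshi black against 111 in Large White, with 55.7 in Chinese wild boar, and was 7.12-fold (6.35 to 8.01) lower. Of the 7 other Kupffer cell and macrophage markers 3 passed lower, LYZ, MARCO and CLEC4F, and none higher, and the 7 summed to 699 CPM in Enshi black against 841 in Large White, with 765 in Chinese wild boar. C1QA, which gave most of that sum, had 548 CPM in Enshi black and 522 in Large White and did not pass, nor did CD68, MSR1 and TIMD4. The part of macrophage numbers in this result was not tested.

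Of 24 growth factor ligands, 1 passed higher and 5 lower, but 15 lay above 1 as a ratio and the median log2 fold was 0.19. VEGFA, which acts on blood vessels, had 67.3 CPM in Enshi black, while Large White had 194 and Chinese wild boar 165, a difference of 2.88-fold (2.71 to 3.06). EFNA1, an ephrin, had 28.8 CPM in Enshi black and 139 in Large White, against 174 in Chinese wild boar, a difference of 4.84-fold (4.43 to 5.29). CCN1, a matricellular protein, had 19.7 CPM in Enshi black against 103 in Large White, with 31.2 in Chinese wild boar, a difference of 5.25-fold (4.73 to 5.84). Enshi black was the lowest library in each. PDGFA and CCN3 were lower by 2.58-fold (2.03 to 3.31) and 2.75-fold (2.102 to 3.62), and the higher gene FGF14 had 3 counts in Large White and a ratio of 20.2 (6.63 to 101). Among 18 hypoxia-responsive genes, LDHA, which makes lactate, was higher by 3.03-fold (2.78 to 3.31) and VEGFA was the 1 lower gene.

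Of 35 insulin and mTOR signalling genes, 3 passed lower and none higher, or 8.57%, near the 8.38% lower over all genes. IRS1, an adaptor of the insulin receptor, had 23.6 CPM in Enshi black, while Large White had 72.6 and Chinese wild boar 26.8, a difference of 3.07-fold (2.78 to 3.41). PIK3R1, the regulatory subunit of phosphoinositide 3-kinase, had 0.463 CPM in Enshi black and 5.37 in Large White, against 3.29 in Chinese wild boar, a difference of 11.6-fold (6.06 to 24.9). PRKAA1, a catalytic subunit of the energy sensor AMPK, was lower by 3.43-fold (2.02 to 6.09), and not with total counts. It had 0.880 CPM in Enshi black, so PRKAA1 and PIK3R1 entered the comparison through Large White alone. Outside this list, IGFBP1, which the liver secretes and whose gene insulin represses, was 31.4-fold (28.3 to 34.9) lower. It had 17.3 CPM in Enshi black against 544 in Large White, with 118 in Chinese wild boar. PIK3R1 and IGFBP1 passed with the assumed spread. The feeding state of the animals is not given in the sources used here. Among 22 MAP kinase feedback genes only SPRY1 passed, lower by 8.54-fold (5.66 to 13.4). Of 34 semaphorin, plexin and axon guidance genes, 3 were higher and 3 lower, led by NTN4 at 5.83-fold (3.42 to 10.6) higher and SEMA3B at 11.4-fold (8.29 to 15.9) lower. Of 22 apoptosis regulators, MDM2, which restrains p53, was higher by 2.72-fold (2.25 to 3.31), and DIABLO, released from mitochondria in dying cells, had 8.02 CPM in Enshi black, while Large White had 46.5 and Chinese wild boar 59.6, and was 5.80-fold (4.93 to 6.87) lower.

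Some genes were nearly without reads in one library. At most 3 counts in Enshi black against at least 5 CPM in Large White were found for 61 gene IDs, or 0.468% of those compared, and the opposite for 19, or 0.146%. Of the 61, 41 had no count in Enshi black, 47 had at least 5 CPM in Chinese wild boar and 2 had at most 3 counts there. Of the 19, 8 had no count in Large White, 1 had at least 5 CPM in Chinese wild boar and 12 had at most 3 counts there. The Chinese wild boar library thus held reads for most IDs that Enshi black nearly lacked, and few for those that Large White nearly lacked. Only 16 of the 61 and 3 of the 19 had a symbol.

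BANF1, which bridges DNA at the nuclear envelope, had no count in Enshi black, 80.9 CPM in Chinese wild boar and 66.9 in Large White, and was at least 481-fold lower against the floor. GNB2, a G protein beta subunit, was at least 193-fold lower, with 20.3 CPM in Chinese wild boar. PHLDB1, a membrane-binding protein, had 3 counts in Enshi black and 47.3 CPM in Large White, a ratio of 341 (116 to 1654). These 3 genes had reads in both other libraries. The calcium channel gene ORAI2 was also without a count in Enshi black and lower by at least 92.0-fold. FILIP1L, a relative of a filamin-binding protein, was so too, by at least 112-fold. TGM3, a transglutaminase, differed from these in Chinese wild boar. It had 16.1 CPM in Large White, 1.87 in Chinese wild boar and no count in Enshi black. Of the 3 with a symbol that Large White nearly lacked, PGGHG, which removes glucose from collagen hydroxylysine, had 1 count there, 10.1 CPM in Enshi black and 11.7 in Chinese wild boar. ALOX15, a lipoxygenase, had 2 counts there, 13.4 CPM in Enshi black and 1.01 in Chinese wild boar, and the third was GABRQ.

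**Figure D4:**
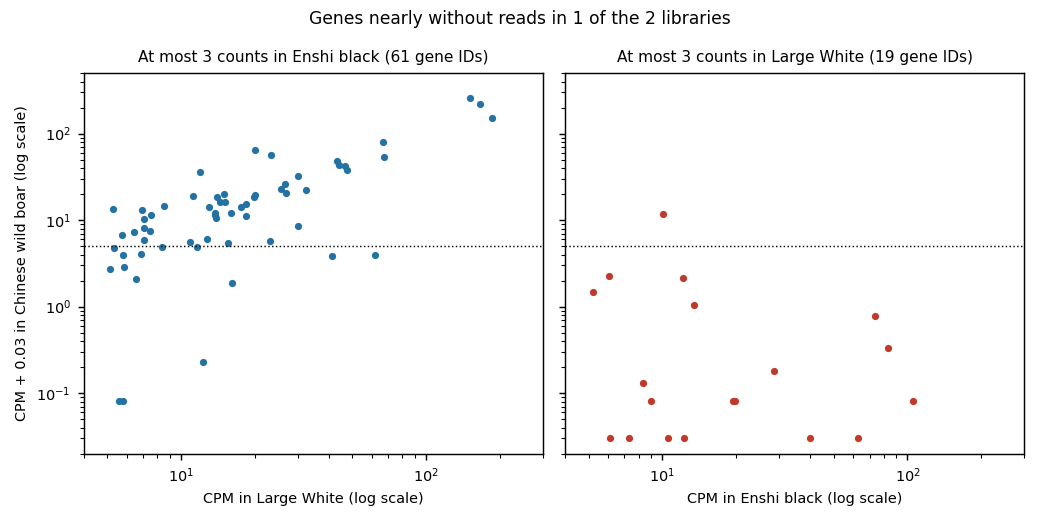
Left, the 61 gene IDs with at most 3 counts in Enshi black, by their CPM in Large White (x) and in Chinese wild boar (y, CPM + 0.03), and right, the 19 with at most 3 counts in Large White, by their CPM in Enshi black and Chinese wild boar, all on log scales. The dotted line marks 5 CPM in Chinese wild boar, with 47 of 61 points at or above it on the left and 1 of 19 on the right.

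Besides the genes already said to pass with the assumed spread, ALOX15, ESPN, FGF14, GABRQ, NECTIN1, PGGHG, ZBTB38, BANF1, CAPZA2, CSF1R, EIF1AD, FILIP1L, GNB2, GSTM3, GTF2IRD1, KCNQ3, KIF1A, MRPL55, ORAI2, PHLDB1, POLR1F, POLR1H, SEMA3B, SLC34A2, SLC6A20, SPRY1, TGM3 and ZNF79 also did.

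The differences varied with gene span. Genes with a RefSeq span (8225, or 94.97% of those with a symbol) were divided into 10 equal groups by span. The median log2 fold of Enshi black over Large White was -0.13 in the shortest group, 0.17 in group 7 from the shortest and 0.06 in the longest. Of 823 genes in the shortest group 27 passed higher and 84 lower, against 47 higher and 44 lower of 823 in the longest. Folds in the text are not centred for this trend. By level, 18.2% of 3702 genes under 5 CPM passed, 10.6% of 6782 between 5 and 50 CPM, 12.1% of 2328 between 50 and 500 CPM and 16.9% of 231 above.

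**Figure D5:**
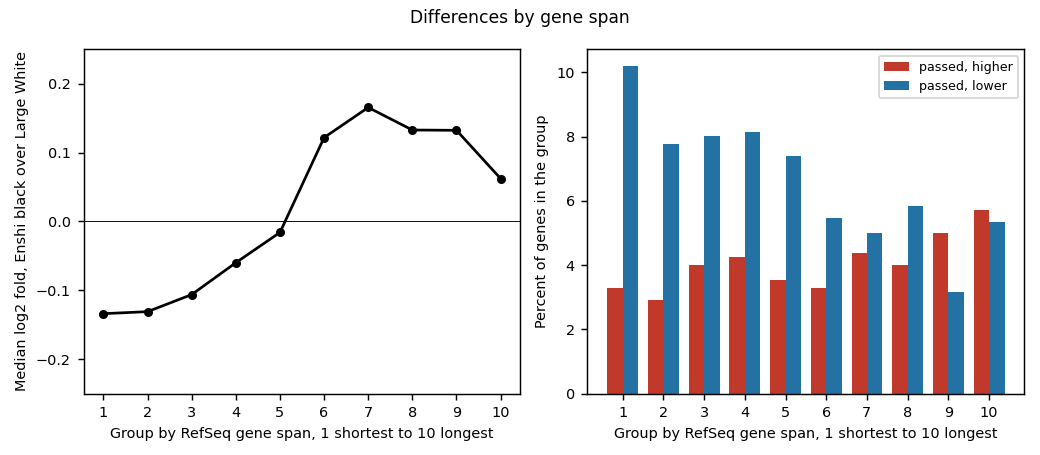
Genes with a RefSeq span in 10 equal groups from the shortest (1) to the longest (10). Left, the median log2 fold of Enshi black over Large White per group, which runs from -0.13 to 0.17; right, the percent of genes in each group that passed as higher or as lower, with 84 of 823 genes lower in the shortest group.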

How the data were processed

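Liver RNA libraries of 1 Enshi black, 1 Large White and 1 Chinese wild boar pig were compared from the deposited tables, which hold whole-number read counts per gene as the authors made them, not normalized. TopHat2 2.1.0, HTSeq 0.6.1, the build Sscrofa10.2 and edgeR 3.16.3 were used per the submitters' processing notes. For the annotation release, strand setting and multiply aligned reads nothing is given in the sources used here, so overlapping, antisense and near-identical genes are uncertain. The 5 rows of each table that name no gene stayed out of totals. Reads outside any feature came to 22.0% in Large White, against 19.0% in Enshi black and 18.9% in Chinese wild boar.

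Counts were scaled with TMM factors (edgeR 4.0.16, R 4.3.3) of 1.04, 0.978 and 0.979, from genes that reached 1 CPM in any library. Ratios of scaled counts carry 95% Clopper-Pearson intervals (Python 3.11.15, numpy 2.4.6, pandas 2.3.3, scipy 1.17.1), and a gene passed with both bounds above 2 or both below 0.5. Without molecular identifiers intervals cover counting error only, and with 1 library a side there is no p-value. Log2 folds used a prior count of 2, and a fold against no count used a floor of 3 counts per library. The interval and the size rule, not the floor or the prior count, were tried beforehand on simulated counts with counting error only. That trial cannot show how the rule does with variation between animals. Symbols came from the gene ID table (11804 of 25322 IDs) and spans by symbol from RefSeq genes of Sscrofa11.1, without coordinates. Figures were drawn with matplotlib 3.10.9.

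The comparison and its gene lists were chosen with earlier results of these data known. The rule for named genes took, per direction, the 12 with the farthest near bound and the 10 with a mean of at least 100 CPM. It also took up to 4 passing genes per list, or 2 abundant ones where none passed, and 8 near-absent genes per direction. Not all are reported. The alternatives were DESeq2 1.42.0 size factors, total counts, TMM on the compared libraries alone, other filters, bounds and intervals, a coefficient of variation of 0.4 assumed among animals, and folds centred within gene span groups. Lists were also run with a prior count of 0.5 and with the mean.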

Additional observations from a re-analysis of the deposited data

How the results depend on the processing

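The number of genes higher in Enshi black was 617 and that of genes lower in Enshi black 1093. They were 615 and 1096 with DESeq2 size factors, 771 and 961 with total counts, 616 and 1095 with TMM on the compared libraries alone, and 667 and 1223 without an expression filter. They were 341 and 623 at 10 CPM, 1523 and 1950 at a bound of 1.5-fold, 148 and 436 at a bound of 4-fold, 405 and 818 with the widest interval tried, and 133 and 413 with the assumed variation between animals. After centring by span group 323 and 527 passed, against 332 and 546 before (genes higher in Enshi black, genes with a RefSeq span, and genes lower in Enshi black, genes with a RefSeq span). At most 1 count in place of 3 left 10 of 19 genes nearly absent from Large White and 52 of 61 from Enshi black, and 10 CPM in place of 5 left 13 and 42. Of 188 named genes that passed, 188 kept it with DESeq2 size factors, 180 with total counts, 79 at 4-fold, 159 with that interval and 70 with the assumed variation. After span centring 161 of 175 did. ALAS1 of haem synthesis, at 1.97-fold (1.93 to 2.02), passed with total counts and after span centring. No named gene that passed changed direction under these settings, the cause of lost calls was not tested, and 26 of 62 list medians changed sign under at least 1 setting. Span centring was void for complexes II to IV, ATP synthase and tRNA synthetases, with 53.3%, 14.3% and 43.3% of members having a span. At this depth 3 counts were worth 0.139 CPM in Enshi black and 0.154 CPM in Large White, which is the level that a count of 0 still allows. Ratios from 1 to 3 counts rest on those few counts and their wide intervals. No paired analysis was possible because each breed has 1 library and no test was run.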

Other observations

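Histidine breakdown runs through 4 liver enzymes, which were gathered after HAL and FTCD were seen to pass. AMDHD1, the third enzyme, had 61.9 CPM in Enshi black and 236 in Large White, against 219 in Chinese wild boar, a difference of 3.81-fold (3.59 to 4.06) with Enshi black the lowest library. UROC1, the second enzyme, had 315 CPM in Enshi black against 418 in Large White, with 459 in Chinese wild boar and did not pass, at 1.33-fold (1.28 to 1.37) lower. GCAT, which splits the threonine product to glycine, had 2 counts in Enshi black, 16.3 CPM in Chinese wild boar and 14.4 in Large White, a ratio of 155 (42.6 to 1288), while the glycine cleavage subunit GLDC had 43.9 CPM in Enshi black and 42.7 in Large White and did not pass. Both GCAT and GLDC were chosen after their values were seen.

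Among near-absent gene IDs without a symbol, the highest levels in Large White were 186, 166 and 151 CPM, each with no count in Enshi black and 152, 223 and 257 CPM in Chinese wild boar. In the opposite direction, the highest level in Enshi black was 105 CPM, with 3 counts in Large White and 1 count in Chinese wild boar.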
